A study of Mus musculus with 19 samples.

Results

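Livers of mice lacking both Ager and Myd88 (Ager_Myd88_null, 4 samples) were compared with livers of mice lacking Myd88 alone (Myd88_null, 4 samples), across all genes on the array. These 8 samples, chosen by their titles, are part of a series of 19, whose other groups, Ager_null (6 samples) and WT (5 samples), carry the same contrast of Ager in mice that have Myd88. Every mouse was a male C57BL/6 animal of 10 to 12 weeks, killed 2 h after removal of 85% of its liver. No group therefore shows the unresected organ, and every difference is one between genotype groups after surgery. RNA of each mouse went onto 1 Affymetrix array, and the values are log2 expression as the authors deposited them. The labels state neither how the null alleles were made nor how far they were crossed onto C57BL/6.

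Ager encodes RAGE, a receptor of the immunoglobulin family that binds advanced glycation end products, HMGB1 and S100 proteins and can signal to NF-kB. Myd88 encodes the adaptor shared by most Toll-like receptors and the interleukin-1 receptor, so in these mice Ager is removed where that route is already closed. In the hours after resection, the remaining hepatocytes leave the resting state under cytokine signals from Kupffer cells, switch on immediate early genes and begin to store lipid.

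The text on RNA extraction in the labels speaks of glomeruli, whereas tissue and source are given as liver. Liver identity was clear in the data: the mean level of 13 hepatocyte markers lay between 13.37 and 13.62 (log2) in Ager_Myd88_null livers and between 13.51 and 13.66 in Myd88_null livers. Of the kidney and glomerulus markers only Podxl, which endothelium also expresses, passed the filter. Array Myd88_null 4 stood apart, with 223 genes lying more than 1 log2 unit beyond the other 7 arrays. For each of those 7 the count was 2 to 13 genes. The median correlation of Myd88_null 4 with all other arrays of the series was 0.965, beside 0.9785 to 0.9867 for the rest. Results are therefore given with and without Myd88_null 4. Ager itself read 3.37 ± 0.20 in Ager_Myd88_null and 3.27 ± 0.11 in Myd88_null livers (log2, SD, n = 4 each), under the filter of log2 4 in both groups, so the array does not check the Ager label. Myd88, deleted in both groups, read 3.45 ± 0.58 in Ager_Myd88_null and 3.49 ± 0.34 in Myd88_null livers.

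Of 8515 tested genes, 13 differed between Ager_Myd88_null and Myd88_null livers at an adjusted p under 0.05 in limma, which is 0.153% of those tested. On the probe sets used, 7 were higher (0.0822%) and 6 lower (0.0705%), the lower ones including Gfer, whose other probe set ran the opposite way (2.40). Their groups did not overlap on any of the 13, which held for 503 tested genes in all (5.91%). An unadjusted p under 0.05 was reached by 1370 genes (16.1%), 598 higher (7.02%) and 772 lower (9.07%). At any p, 4237 tested genes were higher and 4278 lower, which is the base for the list counts below. Without Myd88_null 4 only H2-Bl and Tedc2 were called (0.0235%), with 618 genes at an unadjusted p under 0.05 (7.26%) and 631 not overlapping (7.41%). All 13 kept their sign there, as they must where the groups do not overlap. Other single arrays also set the count: 446 genes were called without Myd88_null 1, 3 without Myd88_null 2 and 6 without Myd88_null 3, and 8, 9, 2 and 8 without Ager_Myd88_null 1, 2, 3 and 4. A further 1147 probe sets with no gene or several in the annotation were tested apart, and 14 of them were called (1.22%). The 13 fall into a group of 7 on chromosome 17, which carries Ager, and a group of 6 elsewhere in the genome. The base was 400 tested genes on chromosome 17 and 8115 elsewhere. Why 7 of the called genes lie on chromosome 17 was not tested.

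**Figure D1:**
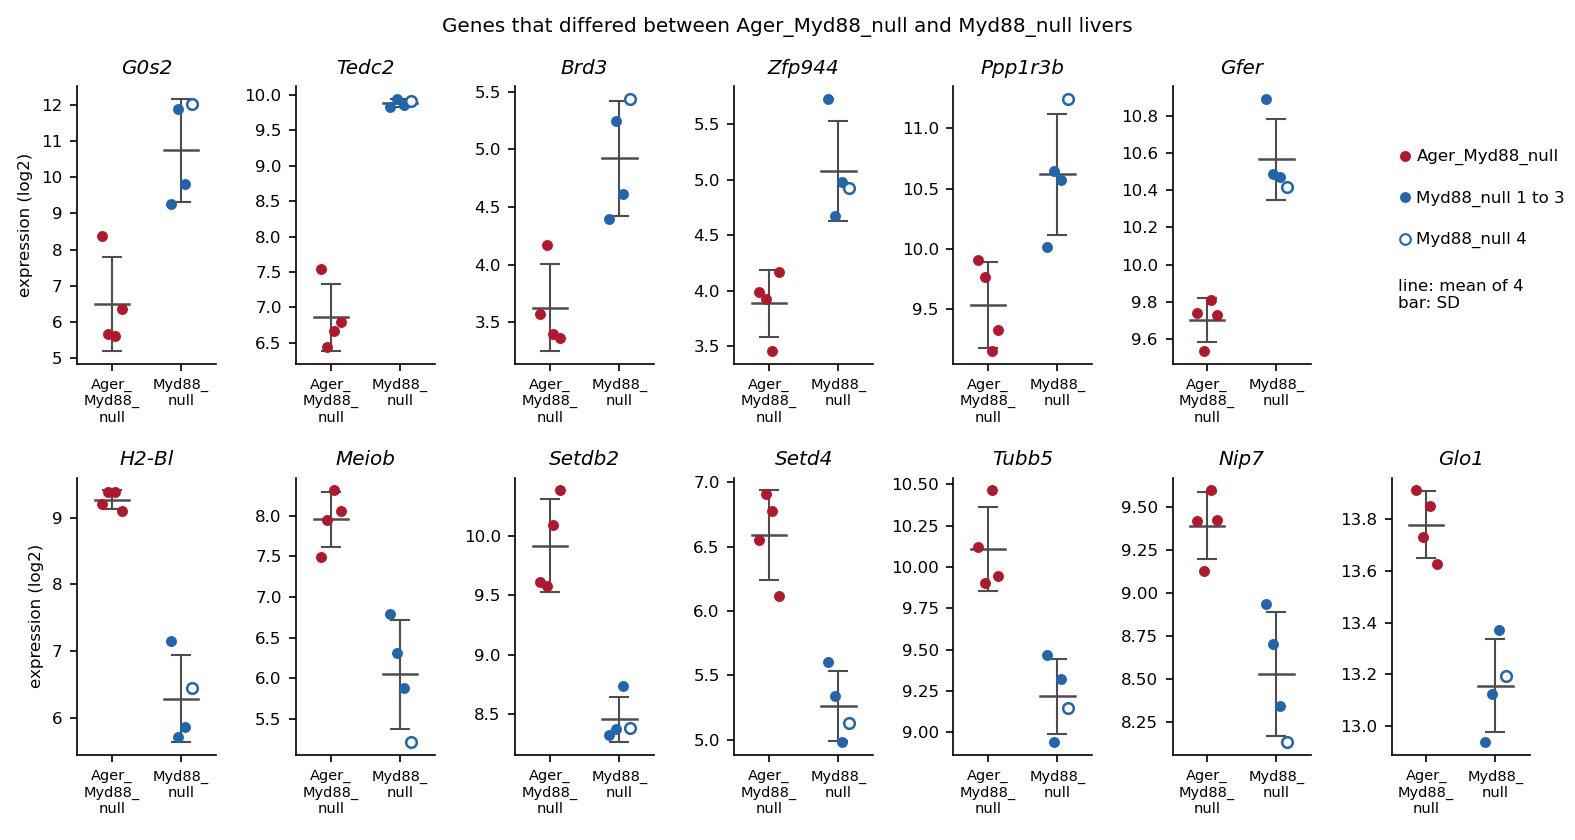
Expression (log2) of the 13 called genes in each liver, with Ager_Myd88_null on the left and Myd88_null on the right of each panel; lines are means, bars SDs (n = 4 each), and the open circle is Myd88_null 4. The groups do not overlap in any panel. The vertical axes differ between panels and do not start at 0.

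The lower gene with the tightest Myd88_null values was Tedc2, which encodes a subunit of a complex of delta and epsilon tubulin needed for stable centrioles. It read 7.54, 6.44, 6.66 and 6.80 (log2) in Ager_Myd88_null livers 1 to 4, against 9.83, 9.94, 9.86 and 9.91 in Myd88_null livers 1 to 4. The groups lay far apart, and the 4 Myd88_null arrays, the one that stood apart included, were nearly the same. Tedc2 fell by 3.02 ± 0.40 (log2, SE; adjusted p = 0.0021 in limma), an 8.14-fold lower level, and was at -3.02 without Myd88_null 4 (adjusted p = 0.0118).

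The annotated gene next to Tedc2 is Ccnf, which encodes cyclin F, the F-box subunit of a ubiquitin ligase. Ccnf read 3.30, 3.68, 3.51 and 3.11 in Ager_Myd88_null livers, under the filter on all 4 arrays, and 7.80, 8.11, 7.34 and 7.32 in Myd88_null livers. Those groups lay far apart, yet Ccnf was not called: its difference was -4.24 ± 0.85 (adjusted p = 0.0550). The shared estimate of spread includes Ager_null livers, where Ccnf read 7.44, 6.51, 6.94, 3.004, 3.60 and 3.05 on arrays 1 to 6, beside 7.75, 7.63, 6.21, 5.78 and 5.86 in WT livers. In a fit of the 8 arrays alone the SE of Ccnf was 0.21 and its adjusted p 6.0e-05. On the same Ager_null arrays Tedc2 read 8.89, 8.94, 8.92, 6.94, 7.91 and 6.94, so the arrays low for one gene were also the lower ones for the other, beside 9.22, 9.02, 9.38, 8.80 and 8.91 in WT livers.

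The promoters of Tedc2 and Ccnf are shown because these neighbours were low in the same livers, and that of G0s2 because it had the largest difference among called genes. Each runs from 250 bases before to 50 after the annotated start on the minus strand (RefSeq, GRCm38.p6), at chr17:24220802-24221101, chr17:24251360-24251659 and chr1:193273139-193273438 in this order, with capitals marking matches on either strand to the motifs listed after them.
Tedc2: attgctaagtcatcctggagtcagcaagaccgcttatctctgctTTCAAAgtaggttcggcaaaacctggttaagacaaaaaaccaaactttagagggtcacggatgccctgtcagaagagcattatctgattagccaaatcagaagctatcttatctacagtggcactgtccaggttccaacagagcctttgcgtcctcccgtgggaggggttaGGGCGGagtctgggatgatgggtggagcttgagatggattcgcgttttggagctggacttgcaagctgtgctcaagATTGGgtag
Ccnf: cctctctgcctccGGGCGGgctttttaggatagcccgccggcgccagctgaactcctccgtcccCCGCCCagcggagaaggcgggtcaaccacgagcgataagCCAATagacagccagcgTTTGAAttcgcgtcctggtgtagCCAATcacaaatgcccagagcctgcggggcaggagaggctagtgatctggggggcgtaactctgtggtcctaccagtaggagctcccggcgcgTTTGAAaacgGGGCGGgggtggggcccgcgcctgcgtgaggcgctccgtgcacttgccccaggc
G0s2: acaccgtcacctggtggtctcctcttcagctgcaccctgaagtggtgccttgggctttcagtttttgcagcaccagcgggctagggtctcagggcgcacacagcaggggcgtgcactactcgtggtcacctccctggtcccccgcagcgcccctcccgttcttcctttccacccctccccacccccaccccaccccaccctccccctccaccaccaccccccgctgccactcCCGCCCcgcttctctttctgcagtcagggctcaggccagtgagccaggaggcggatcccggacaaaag
The motifs searched were CCAAT (in 37.4% of 32851 RefSeq promoters of this length), the GC box GGGCGG (35.7%), TATAAA (13.6%), the E-box CACGTG (7.15%), TGACGTCA (1.79%) and TTTGAA, a cell cycle element (17.9%). The motifs do not overlap each other in these windows. Tedc2 holds 1 CCAAT, 1 GC box and 1 TTTGAA, Ccnf holds 2, 3 and 2 of the same motifs, and G0s2 holds 1 GC box and no other match. A match is a description of the letters and not a site of binding.

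The higher gene with the smallest adjusted p was H2-Bl, a class I gene of the major histocompatibility complex outside the classical K, D and L set. It read 9.20, 9.39, 9.38 and 9.10 in Ager_Myd88_null livers, against 7.14, 5.70, 5.85 and 6.44 in Myd88_null livers. The double nulls lay close together, and the lowest of them was well above the highest Myd88_null liver. H2-Bl rose by 2.98 ± 0.26 (adjusted p = 6.5e-06), 7.90-fold, and by 3.03 without Myd88_null 4 (adjusted p = 4.0e-05). Class I genes as a list were evenly split: of 16 tested class I and peptide-loading genes 8 were higher and 8 lower, with a median difference of -0.02, beside -0.0012 over all tested genes.

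Meiob, which encodes a single-stranded DNA binding protein known for meiotic recombination, read 7.50, 7.95, 8.32 and 8.06 in Ager_Myd88_null livers, against 6.79, 6.31, 5.88 and 5.21 in Myd88_null livers. Its lowest Myd88_null value was on array 4. It rose by 1.91 ± 0.31 (adjusted p = 0.0181), and its difference was 1.63 without that array (adjusted p = 0.0770).

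Tubb5, a beta tubulin gene, read 10.12, 9.90, 10.46 and 9.95 in Ager_Myd88_null livers and 9.46, 8.94, 9.32 and 9.15 in Myd88_null livers. It rose by 0.89 ± 0.15 (adjusted p = 0.0181), but its other, dim probe set differed by 0.01. Of 16 tested tubulin and tubulin-associated genes 13 were higher, with a median of 0.28 (0.22 without Myd88_null 4), and Tubb5 and Tedc2 were the ones called.

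Glo1 encodes glyoxalase 1, which detoxifies methylglyoxal, a precursor of the glycation products that RAGE binds. It read 13.91, 13.73, 13.85 and 13.62 in Ager_Myd88_null livers, against 12.94, 13.12, 13.37 and 13.19 in Myd88_null livers. Glo1 rose by 0.62 ± 0.11 (adjusted p = 0.0254), 1.54-fold, and its 4 probe sets all had positive differences, of 0.62, 1.08, 0.40 and 0.81. The other tested genes of methylglyoxal handling were not called, and the list of 14 had a median of 0.01.

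Gfer, known as augmenter of liver regeneration, encodes a sulfhydryl oxidase of mitochondria. On its brighter probe set it read 9.74, 9.54, 9.81 and 9.73 in Ager_Myd88_null livers and 10.89, 10.49, 10.47 and 10.42 in Myd88_null livers, a fall of 0.87 ± 0.17 (adjusted p = 0.0464). The other probe set ran the opposite way, with 8.35, 8.09, 8.53 and 7.53 in Ager_Myd88_null livers against 5.91, 5.31, 5.86 and 5.80 in Myd88_null livers, a difference of 2.40 ± 0.30 (adjusted p = 0.0013 over all probe sets). Both probe sets separated the groups fully, so these data give no direction for Gfer as a gene.

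Zfp944, a zinc finger gene, was the last of the 7 on chromosome 17. It read 3.99, 3.92, 3.46 and 4.17 in Ager_Myd88_null livers and 5.73, 4.68, 4.98 and 4.92 in Myd88_null livers, a fall of 1.19 ± 0.23 (adjusted p = 0.0464). Its 2 other probe sets were at -0.14 and 0.05. Zfp945, another member of the series, had a difference of -1.86 ± 0.39 and Zfp955b one of 1.38 ± 0.29, with adjusted p-values of 0.0652 and 0.0675. Zfp945 read 2.38 to 3.77 in Ager_Myd88_null livers, under the filter. The zinc finger genes did not share a direction: 9 of 14 tested were higher and 5 lower.

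**Figure D2:**
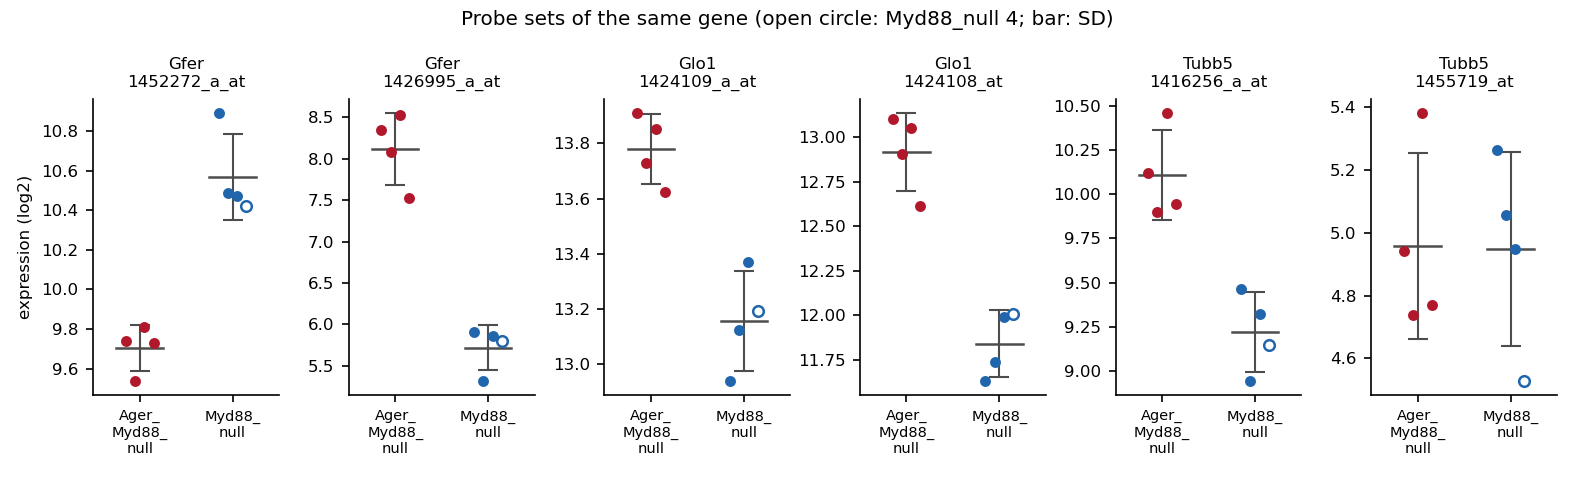
Expression (log2) on both of the probe sets drawn for Gfer, Glo1 and Tubb5 in Ager_Myd88_null (left) and Myd88_null (right) livers; lines are means, bars SDs (n = 4 each), and the open circle is Myd88_null 4. The Gfer probe sets run opposite ways, those of Glo1 the same way, and for Tubb5 the groups separate only on the brighter one. The vertical axes differ and do not start at 0.

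In the RefSeq gene order Tubb5 and H2-Bl lie 117 and 143 genes to one side of Ager, and Glo1, Meiob, Gfer, Tedc2 and Zfp944 lie 175, 409, 421, 451 and 545 genes to the other. Among the 87 tested genes within 150 genes of Ager, 24.1% had an unadjusted p under 0.05, beside 27.5% of 313 on the rest of chromosome 17 and 15.6% of 8115 on other chromosomes. Without Myd88_null 4 these shares were 13.8%, 13.7% and 6.94%. The share was largest, 57.1% of 21 tested genes, in the bin from 501 to 750 genes away on the Zfp944 side, and was 33.3% there without Myd88_null 4. In the bin from 251 to 500 it was 32.1% of 78, and 25.6% without that array. The bins were chosen after the values were seen. Neighbouring genes are not independent, and no test was run on these shares.

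On the probe sets used, the 7 genes of chromosome 17 had the same sign in Ager_null against WT, Gfer among them although its probe sets disagree, a comparison that shares no array with this one and in which 107 genes were called (1.26%). In that order the differences were 0.69 for Tubb5, 2.13 for H2-Bl, 0.83 for Glo1, 0.97 for Meiob, -0.78 for Gfer, -0.97 for Tedc2 and -1.25 for Zfp944. Uncalled genes of chromosome 17 ran both ways. Abca3, a lipid transporter gene, was at 1.76 ± 0.40 (2.85 in Ager_null against WT), Riok2, a kinase gene of ribosome maturation, at -1.54 ± 0.32 (-2.05), Zfp945 at -1.86 (-1.59) and Ccnf at -4.24 (-1.56). Of opposite sign were the kinase gene Pim1, at -1.22 ± 0.36 (1.62), and Fkbp5, at -1.35 ± 0.30 (0.74). Both had an interaction called in limma (adjusted p = 0.0255 and 0.0261). They were named for values that enter the interaction, which was called for 0 genes without Myd88_null 4. Zfp955b and Zfp53, at 1.38 and 1.05 here, were at 0.15 and -0.10 in Ager_null against WT.

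**Figure D3:**
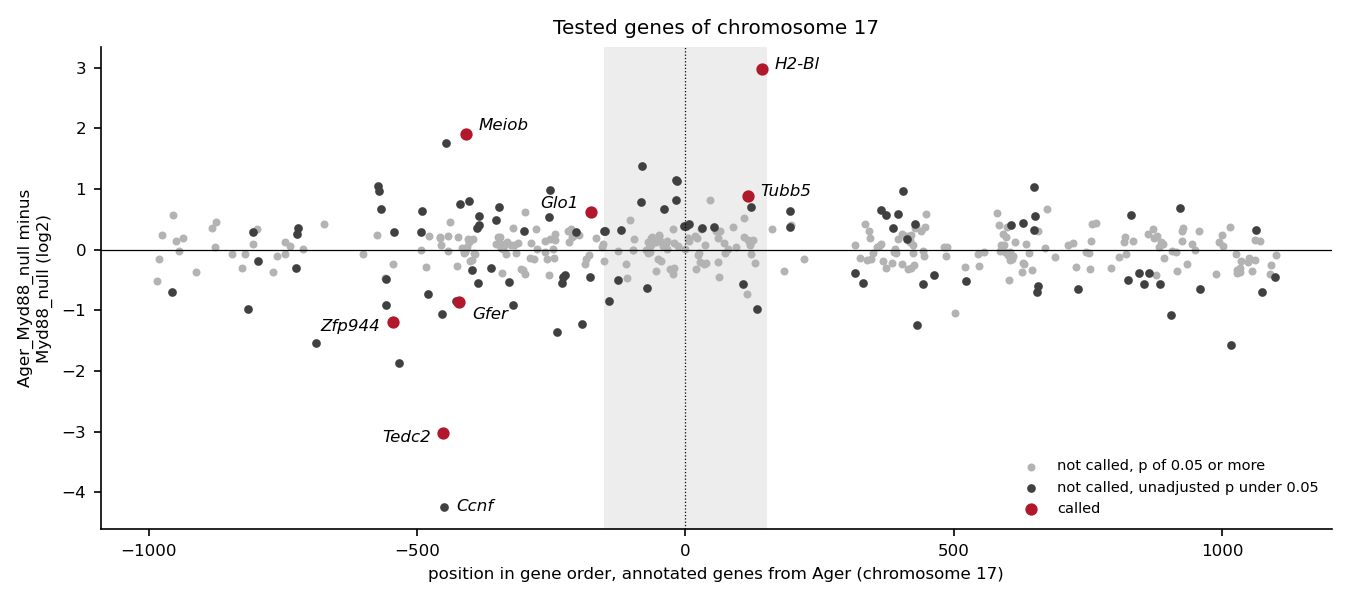
Difference (log2, Ager_Myd88_null minus Myd88_null) of each tested gene of chromosome 17 against its place in the gene order from Ager, with the 150 genes on each side shaded. Called genes are red, and dark points have an unadjusted p under 0.05. The 7 called genes lie on both sides, from Zfp944 at -545 to H2-Bl at 143, with Tedc2 and Ccnf side by side.

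Away from chromosome 17, the largest difference was in G0s2, whose product inhibits adipose triglyceride lipase and so holds back the breakdown of lipid droplets. G0s2 read 8.37, 5.66, 5.61 and 6.35 in Ager_Myd88_null livers, against 9.25, 11.89, 9.81 and 12.01 in Myd88_null livers. Both groups were widely spread, and the highest double null came nearest to Myd88_null 1, the lowest of its group. G0s2 fell by 4.24 ± 0.75 (adjusted p = 0.0254), 18.9-fold, and was at -3.82 without Myd88_null 4 (adjusted p = 0.0970).

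Hilpda, which encodes another inhibitor of the same lipase, was not called. It read 6.34, 5.57, 5.65 and 5.99 in Ager_Myd88_null livers and 7.19, 9.17, 8.53 and 8.99 in Myd88_null livers, with a difference of -2.58 ± 0.59 (adjusted p = 0.0896). As in G0s2, Ager_Myd88_null 1 was the highest of its group and Myd88_null 1 the lowest of its own. Of 19 tested lipid droplet and lipolysis genes 15 were lower, with a median of -0.16 (-0.14 without Myd88_null 4), and G0s2 alone was called. Of 21 genes of fatty acid and triglyceride synthesis 19 were lower and 0 called, with a median of -0.37 (-0.19). They included Fasn, fatty acid synthase, at -0.83 ± 0.35, and Acly, which makes cytosolic acetyl-CoA, at -0.68 ± 0.18.

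Ppp1r3b encodes the liver subunit that brings protein phosphatase 1 to glycogen. It read 9.91, 9.77, 9.15 and 9.32 in Ager_Myd88_null livers, against 10.01, 10.65, 10.57 and 11.25 in Myd88_null livers. The groups all but met at Ager_Myd88_null 1 and Myd88_null 1, and the highest value was that of Myd88_null 4. Ppp1r3b fell by 1.08 ± 0.21 (adjusted p = 0.0464) and was at -0.87 without Myd88_null 4 (adjusted p = 0.161). It was the called member of 19 glycogen genes, of which 12 were lower, with a median of -0.13.

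Genes of gluconeogenesis and insulin signalling were lower for 16 of 21 tested and 0 were called. Of the 21, 7 were lower at an unadjusted p under 0.05, beside 9.07% of all tested genes, and 3 without Myd88_null 4. Their median was -0.35, and -0.19 without Myd88_null 4. The insulin receptor substrate gene Irs2 read 6.26, 6.31, 5.20 and 4.15 in Ager_Myd88_null livers and 6.28, 7.42, 7.48 and 8.38 in Myd88_null livers, overlapping at Myd88_null 1 (-1.91 ± 0.45, adjusted p = 0.104). Pik3r1, the regulatory subunit of PI3-kinase, had a difference of -1.53 ± 0.33 (adjusted p = 0.0702). The member of the list with the smallest p, Sik1, lies at -142 in the gene order from Ager. Sik1 was at -0.84 ± 0.17 (adjusted p = 0.0652 in limma), and at -0.80 in Ager_null against WT. It was dim, with 3.46 to 3.99 in Ager_Myd88_null livers, under the filter, and 4.36 to 4.70 in Myd88_null livers.

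Setdb2 and Setd4 encode SET-domain proteins, the family of lysine methyltransferases. Setdb2 read 9.61, 9.58, 10.09 and 10.38 in Ager_Myd88_null livers, against 8.33, 8.37, 8.74 and 8.38 in Myd88_null livers, a rise of 1.46 ± 0.24 (adjusted p = 0.0181). Setd4 read 6.55, 6.91, 6.78 and 6.11 in Ager_Myd88_null livers, against 5.61, 5.34, 4.98 and 5.13 in Myd88_null livers, a rise of 1.33 ± 0.26 (adjusted p = 0.0464). In both genes Myd88_null 4 lay within the range of its group. Most of their family lay the other way: 17 of 26 tested SET-domain genes were lower, with a median of -0.17 (-0.04 without Myd88_null 4). Kmt2d, a histone H3 lysine 4 methyltransferase gene, was at -1.24 ± 0.31 (adjusted p = 0.127). It read 6.41 on Myd88_null 4, beside 4.54 to 5.32 on the rest of that group.

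Brd3, a BET protein gene that reads acetylated histones, was dim. It read 3.58, 4.17, 3.40 and 3.36 in Ager_Myd88_null livers and 4.40, 5.24, 4.61 and 5.44 in Myd88_null livers, a fall of 1.29 ± 0.25 (adjusted p = 0.0464), with a mean under the filter in the double nulls. Its 3 other probe sets were at -0.23, -0.67 and -0.40. Of 29 tested bromodomain genes 25 were lower, with a median of -0.31, and -0.11 without Myd88_null 4.

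Nip7, a factor of large ribosomal subunit assembly, read 9.42, 9.13, 9.60 and 9.42 in Ager_Myd88_null livers and 8.94, 8.71, 8.34 and 8.13 in Myd88_null livers. It rose by 0.86 ± 0.17 (adjusted p = 0.0464), and its other probe set was at 0.29. Of 40 tested genes of ribosome biogenesis 23 were higher and 17 lower, with a median of 0.12.

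The 6 genes outside chromosome 17 had mixed signs in the other pair of groups. In Ager_null against WT, G0s2 was at -0.42, Brd3 at 0.56, Ppp1r3b at 0.31, Setdb2 at 0.22, Setd4 at -0.63 and Nip7 at -0.38, so G0s2 and Setdb2 kept the sign and the other 4 did not. The interaction, which asks whether the Ager difference itself differs with Myd88 status, was called for 205 genes (2.41%), among them all 6 and Tedc2. These genes were chosen by the Ager_Myd88_null and Myd88_null values that enter the interaction, so their share of calls is raised by that choice and is given as a description. The 6 estimates were -3.82 for G0s2, -1.86 for Brd3, -1.39 for Ppp1r3b, 1.24 for Setdb2, 1.95 for Setd4 and 1.24 for Nip7, with adjusted p-values between 0.0255 and 0.0491. Without Myd88_null 4 the interaction was called for 0 genes (0%) in limma, with 1667 at an unadjusted p under 0.05 against 2319 with it. For the 6 other genes of chromosome 17 the interaction was not called, with adjusted p-values from 0.130 for H2-Bl to 0.916 for Zfp944.

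**Figure D4:**
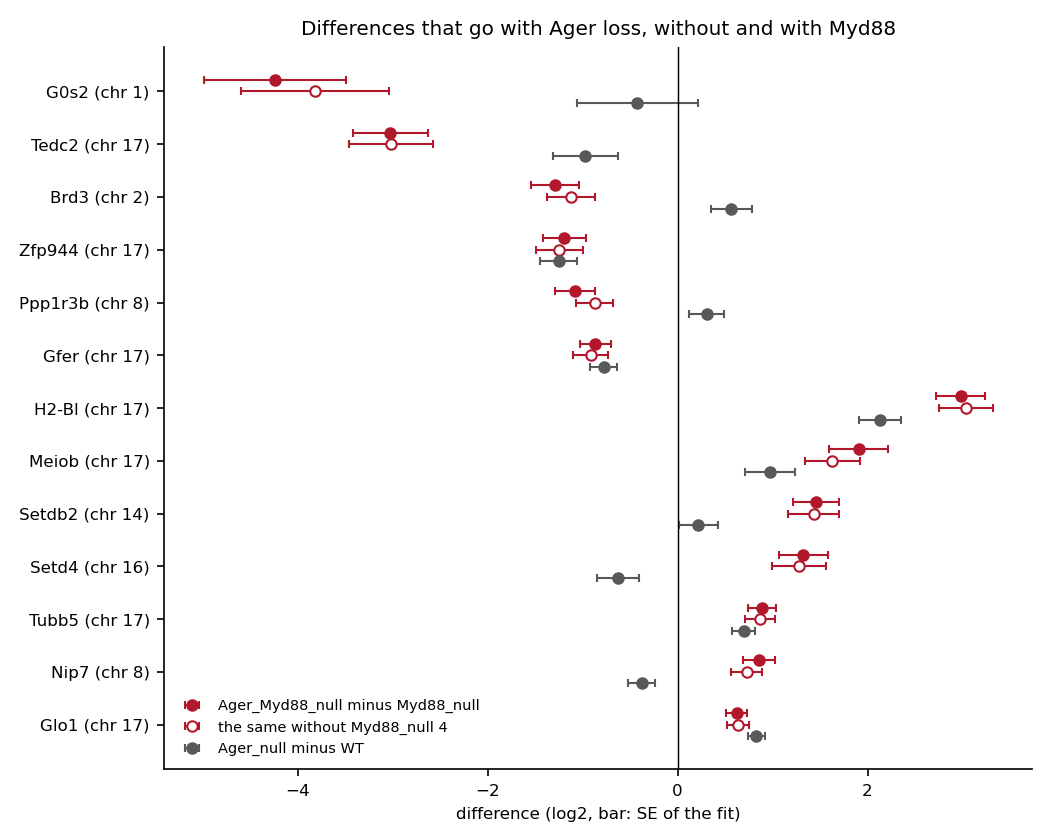
Differences (log2, bars SE) of the 13 called genes between Ager_Myd88_null and Myd88_null (filled red), the same without Myd88_null 4 (open red) and between Ager_null and WT (grey). On the probe sets used, the 7 genes of chromosome 17 have red and grey points on the same side of 0, and Brd3, Ppp1r3b, Setd4 and Nip7 have them on opposite sides.

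Among the lists of the early response, 24 of 30 tested immediate early genes were lower in Ager_Myd88_null livers and 0 were called, with a median of -0.30, and -0.34 without Myd88_null 4. Their mean level was 8.31, 8.32, 8.37 and 8.63 in Ager_Myd88_null livers, against 8.53, 9.05, 9.12 and 8.75 in Myd88_null livers, overlapping at Ager_Myd88_null 4 and Myd88_null 1. Junb, a subunit of AP-1, read 9.52, 10.10, 9.73 and 10.05 in Ager_Myd88_null livers and 10.61, 10.85, 11.09 and 10.31 in Myd88_null livers (-0.87 ± 0.20, adjusted p = 0.0912). The orphan receptor gene Nr4a1 was at -1.06 ± 0.31, and Myc was at -1.01 ± 0.37. Of 17 NF-kB targets and cytokines 10 were lower, with a median of -0.09, and 22 of the 30 tested genes of the acute phase and IL-6/STAT3 list were lower, with a median of -0.12. Among 14 tested genes for RAGE ligands and partners 11 were higher, with a median of 0.32, and of 0.07 without Myd88_null 4.

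Clock genes and their outputs were lower for 14 of 17 tested, with a median of -0.54 that was -0.24 without Myd88_null 4, and 0 were called. The period gene Per2 read 4.30, 4.29, 4.23 and 4.98 in Ager_Myd88_null livers and 5.48, 6.09, 6.57 and 7.39 in Myd88_null livers (-1.93 ± 0.52, adjusted p = 0.168). Without Myd88_null 4 the difference of Per2 was -1.60 (adjusted p = 0.573 in limma). Hlf, a transcription factor gene driven by the clock, was at -1.29 ± 0.28 (adjusted p = 0.0751). It read 8.71 on Myd88_null 4, beside 7.46 to 7.68 on the rest of that group. Of the glucocorticoid-responsive genes, Fkbp5 was at -1.35 ± 0.30 (adjusted p = 0.0785), while the list of 19 was split into 9 higher and 10 lower. The labels do not state the hour at which livers were taken.

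All 16 tested Kupffer cell and macrophage markers were higher in Ager_Myd88_null livers and 0 were called, but most of the difference came with array Myd88_null 4. Their mean level was 8.45, 8.81, 9.08 and 8.65 in Ager_Myd88_null livers, against 8.77, 8.50, 8.61 and 6.90 in Myd88_null livers. The median difference was 0.48 with that array and 0.15 without it. In whole liver, fewer Kupffer cells and less RNA per cell cannot be told apart. The 6 MHC class II genes were also lowest on Myd88_null 4. Their mean levels were 7.52, 7.79, 8.37 and 8.15 in Ager_Myd88_null livers, against 7.57, 7.52, 7.71 and 6.10 in Myd88_null livers. Unlike a macrophage marker list, this list holds close neighbours of Ager. H2-Eb1, H2-Aa and H2-Ab1 lie at -16, -17 and -18 in the gene order from Ager. In Ager_null against WT these genes were at -0.12, -0.11 and -0.07, of opposite sign and near 0. H2-Ea, at -14 in that order, had a difference of 0.06 between Ager_Myd88_null and Myd88_null livers. Whether place near Ager plays a part was not tested. All 6 class II genes were higher, 4 of them at an unadjusted p under 0.05, beside 7.02% of all tested genes. Without Myd88_null 4 their median was 0.47 in place of 0.89 and 0 were under 0.05. Hepatocyte markers had a median of -0.01, and none of the T cell and NK cell markers was tested, since all were dim.

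**Figure D5:**
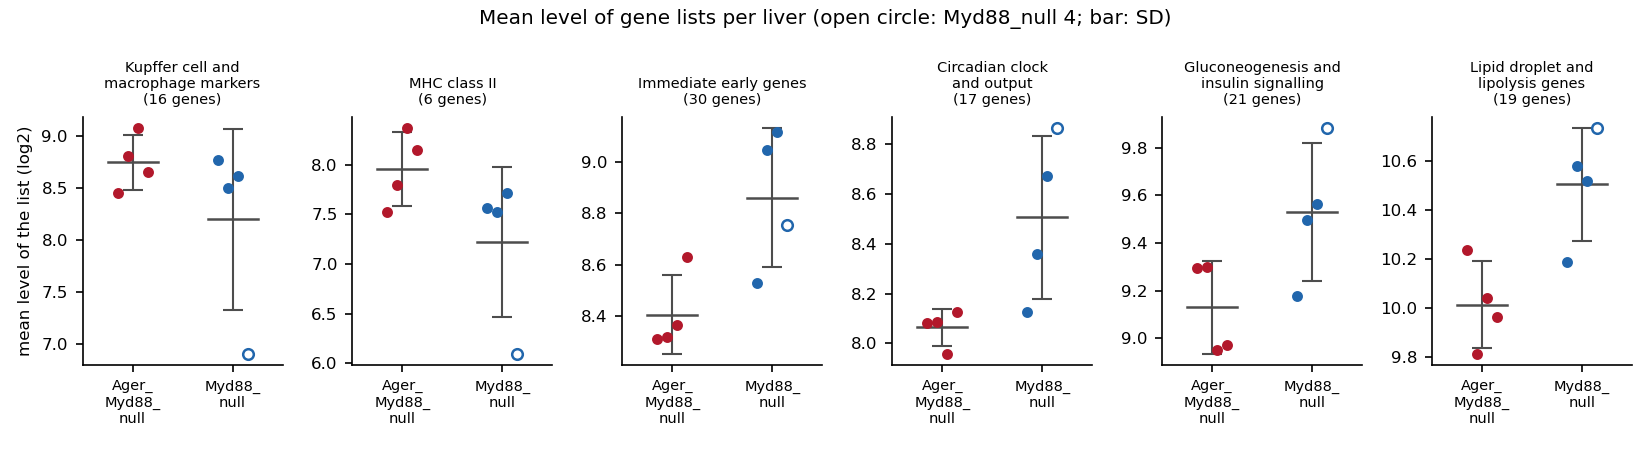
Mean level (log2) of 6 gene lists in each Ager_Myd88_null (left) and Myd88_null (right) liver; lines are means over livers, bars SDs (n = 4 each), and the open circle is Myd88_null 4. That liver is the lowest for Kupffer cell markers (6.90) and MHC class II (6.10) and the highest for the clock, gluconeogenesis and lipid droplet lists. The vertical axes differ and do not start at 0.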

How the data were processed

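The deposited values are log2 expression, which the authors made from the probes with GCRMA 2.16, per the submitters' processing notes. GCRMA corrects background by probe sequence, normalizes arrays and summarizes probe sets; its settings were not stated. Of 45101 probe sets 64 were controls, 34945 carried 1 gene symbol in the platform annotation, 932 several and 9160 none. Each of 18193 genes was represented by its brightest single-symbol probe set and entered the tests with values above log2 4 on 4 arrays or more, which 8515 genes met. All 19 arrays entered 1 limma fit (3.58.1, R 4.3.3), with two-sided tests, Benjamini-Hochberg adjustment over all tested genes and calls at an adjusted p under 0.05. The fit was tested on simulated data with independent noise and no array that stands apart. That test does not bear on how far single arrays set the calls. The labels describe RNA per mouse, so samples were treated as separate animals, and their number limits the precision.

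Groups come from the sample titles. The sample descriptions also hold an S number whose meaning is not stated; its ranges 1 to 6, 7 to 12 and 13 to 20 were tried as a block. The other alternatives changed the arrays, the scaling, the filter and the choice of probe set.

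The genes named are Ager and Myd88, every called gene, uncalled genes with the largest differences whose groups do not overlap, members of 28 pathway and 12 marker lists with the smallest p, and genes near Ager. Members and lists were chosen with earlier results of these data known. Gene order is from RefSeq, GRCm38.p6. Probe sets without a single gene were counted only.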

Additional observations from a re-analysis of the deposited data

Results flagged for a closer look

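Single arrays lay far from the rest of their group by Dixon's criterion, which chance meets in about 1 of 20 groups. Gfer read 10.89 on Myd88_null 1, while its other 3 arrays lay between 10.42 and 10.49. Setdb2 read 8.743 on Myd88_null 3, against 8.329 to 8.385 on the others. Among mean list levels, Myd88_null 4 was low for Kupffer cell markers (6.903, others 8.503 to 8.767) and for MHC class II (6.098, others 7.519 to 7.714). Myd88_null 1 was low for glucocorticoid-responsive genes (11.08, others 11.48 to 11.54). Ager_Myd88_null 4 was high for immediate early genes (8.632, others 8.311 to 8.366), and Ager_Myd88_null 1 for PPAR-alpha and fatty acid oxidation genes (11.44, others 10.86 to 10.89). Many genes and lists were screened in each group, so some of these readings can arise by chance. Whether anything sets these livers apart was not tested.

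The interaction term in limma, for a difference with Ager loss that depends on Myd88, was called for 7 of the 13 genes, beside 205 of all tested genes (2.41%). The 13 were chosen by values that enter this term, which favours such calls. Its estimates (log2) were -1.858 for Brd3, -3.819 for G0s2, 1.24 for Nip7, -1.388 for Ppp1r3b, 1.951 for Setd4, 1.238 for Setdb2 and -2.051 for Tedc2, and none of the 7 was called without Myd88_null 4 or with the S range as a block.

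Probe sets that the annotation gives no gene, or several, were outside the gene-level comparison. Of 1147 tested, 14 were called (1.22%), the largest differences being -5.13 and 3.82 (log2), both still called without Myd88_null 4.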

How the results depend on the processing

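H2-Bl and Tedc2 were called in each of 20 settings. In place of 13 genes, 2 to 446 were called when 1 array was left out. The 446 (152 higher, 294 lower, all 13 among them) came without Myd88_null 1; 2 came without Ager_Myd88_null 3 and also without Myd88_null 4. The fit of the 8 arrays alone called 4, limma array weights 293, each probe set on its own 20, and the S range as a block 5. With the replicate block 3 genes were called (Ccnf, H2-Bl and Tedc2). Deviations of same-numbered samples from their group means had correlations of -0.288, 0.104, 0.135 and -0.302. Those of differently numbered samples ran from -0.387 to 0.418. These values cannot decide whether the numbers mark pairs. Other settings gave 10 to 16. Myd88, under the filter in both groups, ranged from -0.1763 to 0.2455 when 1 array was left out (0.2455 without Ager_Myd88_null 4, 0.0285 and 0.0784 without Myd88_null 1 and 2) and was at 0 with values under log2 4 set to 4. With the mean of a gene's probe sets Gfer was at 0.769 and Csnk1d at -0.072, and the interaction of Zfp944 was at -0.0022 with the replicate block. Apart from its construction, the cause of each change was not tested. Within S 1 to 6 and S 7 to 12 all 13 called genes had the sign of the main result. Because their groups do not overlap, this sign was fixed in advance. Myd88_null 4 is the array of its group in S 13 to 20, which holds no Ager_Myd88_null array, so that array and its S range cannot be told apart. Brd3, Zfp944, Zfp945 and Sik1 lie near or under the filter in Ager_Myd88_null livers, where background limits the precision.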
